A study of Mus musculus with 9 samples.

Results

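The RNA of 10 genes tied to Wnt signaling at the central vein, chosen by name, was followed in bulk liver. They were the ligand genes *Rspo3*, *Wnt2* and *Wnt9b* and the receptor-complex genes *Lgr5*, *Rnf43* and *Znrf3*. The others were the pathway targets *Axin2* and *Tbx3* and the pericentral hepatocyte genes *Glul* and *Rhbg*. All 10 are among the 43346 genes listed for this series and all 10 passed the expression filter, which kept 15024 genes for testing. RNA-Seq was performed on whole liver of male 12-week-old C57/BL6 mice, with 3 libraries in each of 3 groups. Baseline livers were the median and left lateral lobes resected at 70% partial hepatectomy (0 h) from vehicle-treated mice, vehicle being normal saline. The other groups were liver remnants collected 40 h after 70% hepatectomy from mice given vehicle or NSC-87877 (NSC), a small molecule inhibitor of the phosphatases SHP1 and SHP2, at 7.5 mg/kg per dose i.p. every 12 h. The labels place the first dose 12 h before surgery. Baseline and 40 h tissue thus differed in lobe and surgery as well as in time, which cannot be told apart, and the 3 baseline libraries served as the reference of either 40 h group. NSC-treated livers at 0 h were not analysed here.

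In the liver lobule, endothelial cells of the central vein secrete Wnt proteins and R-spondin 3. Wnt proteins bind Frizzled and LRP receptors on neighboring hepatocytes, which stabilizes β-catenin and lets it act with TCF/LEF factors on target genes, whereas R-spondins bind LGR receptors and keep the ubiquitin ligases RNF43 and ZNRF3 from clearing Frizzled from the cell surface. Hepatocytes that receive the signal carry the pericentral program, of which glutamine synthetase is the classic marker, and hepatocytes near the portal vein run urea synthesis and gluconeogenesis.

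Total counts per library were 31187349 to 33943842 at baseline, 27956396 to 42887589 for vehicle at 40 h and 23997363 to 30201051 for NSC. NSC replicate 1 stood apart: the correlation of its log2 CPM (counts scaled to a common library size) over tested genes was 0.953 to 0.963 with the other NSC libraries and 0.964 to 0.973 with the vehicle libraries at 40 h, so results that rest on it are also given without it. The 10 hepatocyte markers checked (*Alb*, *Ttr* and others) were detected in every library. Levels of single genes below are CPM scaled by TMM factors, given for replicates 1, 2 and 3 in that order, and differences are log2 fold changes with their standard error (SE) from edgeR's quasi-likelihood test. A gene was called higher or lower at a Benjamini-Hochberg adjusted p under 0.05 over all 15024 genes. P-values measure the spread between these libraries.

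In vehicle-treated mice 3 of the 10 genes were higher at 40 h than at baseline, *Axin2*, *Lgr5* and *Tbx3*, and 0 were lower. Over all tested genes 12.7% were called higher and 11.0% lower in this comparison. In NSC-treated mice 4 of the 10 were higher than baseline, namely those 3 and *Wnt9b*, and 0 were lower, beside 18.2% higher and 16.5% lower over all genes. The direct comparison of NSC with vehicle at 40 h called 0 of the 10 by edgeR and 0 by DESeq2, with 0 at an unadjusted p under 0.05, where 19.5% of all tested genes were. Over all genes that comparison called 0% higher and 0.0399% lower. The median log2 fold change of the 10 genes was 0.48 for vehicle and 0.76 for NSC against baseline and -0.0097 for NSC against vehicle, where the medians of all tested genes were 0.013, 0.013 and 0.015.

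The 3 livers of a 40 h group all lay above the 3 baseline livers for 5 of the 10 genes under vehicle (*Axin2*, *Lgr5*, *Tbx3*, *Rhbg* and *Wnt9b*) and for 3 under NSC (*Lgr5*, *Tbx3* and *Wnt9b*). None of the 10 lay wholly below baseline in either group. Such separation upward was seen in 24.2% of tested genes under vehicle and 24.0% under NSC, and downward in 22.0% and 23.1%. Between the NSC and vehicle livers at 40 h, all 10 genes overlapped, while 10.3% of tested genes were wholly higher under NSC and 12.2% wholly lower.

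**Figure D1:**
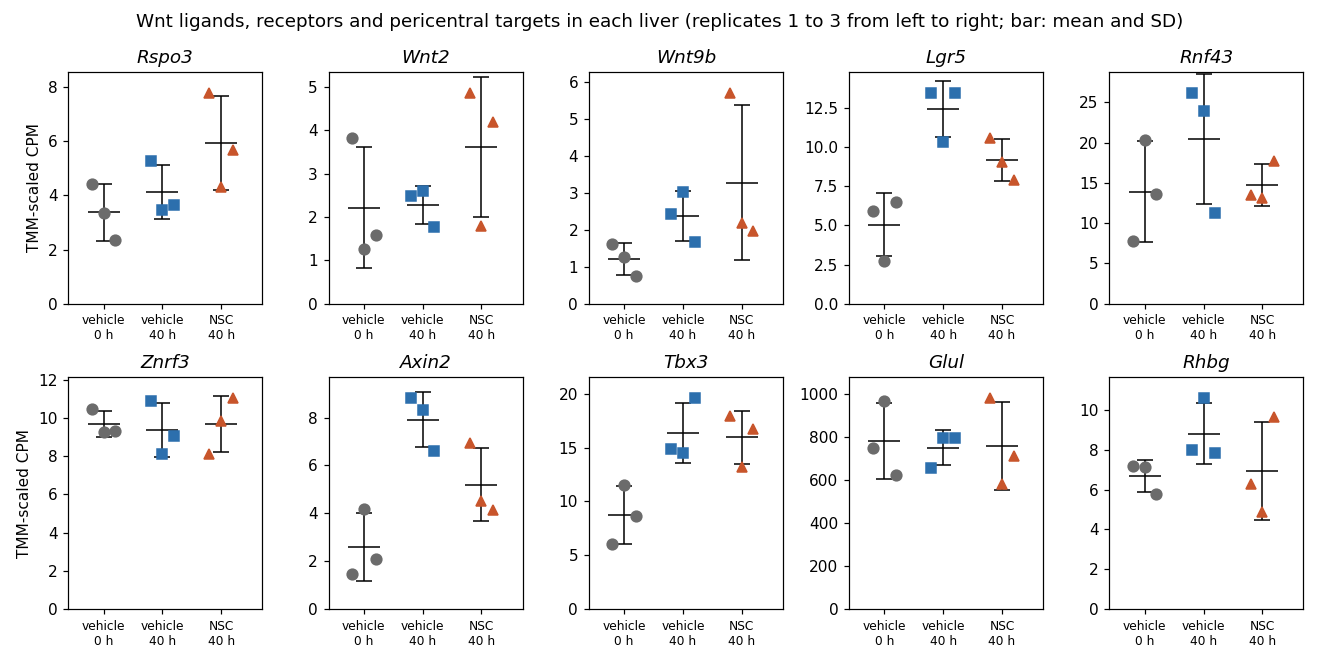
TMM-scaled CPM (y axes from 0, a scale of its own for each gene) of the 10 genes in each liver, with the mean and SD of each group of 3 as bars. *Axin2*, *Lgr5* and *Tbx3* lie higher in the vehicle livers at 40 h than in all baseline livers, *Glul* and *Znrf3* overlap in all groups, and NSC replicate 1 is the highest of the 9 livers for *Rspo3*, *Wnt2* and *Wnt9b*.

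By deposited FPKM, which divides counts by gene length and so allows genes to be compared, *Glul* stood far above the others, at 226 ± 50.3 (SD, n = 3) at baseline. The other 9 genes lay between 0.258 ± 0.0899 for *Wnt9b* and 3.34 ± 0.381 for *Rhbg*. The order at baseline was *Glul*, *Rhbg*, *Rnf43*, *Tbx3*, *Rspo3*, *Znrf3*, *Wnt2*, *Lgr5*, *Axin2*, *Wnt9b*, and apart from *Glul* and *Rhbg* every neighboring pair overlapped in its 3 livers. In the vehicle livers at 40 h *Axin2* stood at 1.40 ± 0.265 and *Lgr5* at 1.18 ± 0.247 FPKM, just above *Znrf3* at 1.17 ± 0.270 with overlapping livers, and *Wnt9b* was again lowest at 0.509 ± 0.134, here wholly below its neighbor *Wnt2*. Under NSC *Wnt9b* was also last, at 0.782 ± 0.529, and overlapped *Lgr5*.

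Of the 3 ligand genes, *Wnt9b* alone passed the test, and only under NSC. *Wnt9b* (ENSMUSG00000018486, chromosome 11, 103727364 to 103749821, minus strand of GRCm38) encodes a Wnt protein that liver endothelial cells make around the central vein. It was read at 1.61, 1.25 and 0.759 CPM at baseline, 2.43, 3.03 and 1.66 CPM in vehicle livers at 40 h and 5.70, 2.17 and 1.96 CPM under NSC. All 6 livers at 40 h were above the 3 baseline livers, and NSC replicate 1 was the highest. The log2 fold change was 0.98 under vehicle (SE 0.45, edgeR adjusted p = 0.133), which did not pass, and 1.44 under NSC (SE 0.45, edgeR adjusted p = 0.0262), which did. The NSC call rested on single libraries: it was 0.77 without NSC replicate 1 (edgeR adjusted p = 0.120), 1.47 without baseline replicate 2 (edgeR adjusted p = 0.0594) and 1.20 without baseline replicate 3 (edgeR adjusted p = 0.0998). The vehicle difference was called without NSC replicate 1, at 0.98 (edgeR adjusted p = 0.0368). The raw counts behind *Wnt9b* were 23 to 190 per library.

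*Rspo3* (ENSMUSG00000019880, chromosome 10, 29453109 to 29535867, minus strand) encodes the R-spondin of the central vein. Its level was 4.42, 3.33 and 2.34 CPM at baseline, 5.26, 3.45 and 3.65 CPM under vehicle at 40 h and 7.77, 4.31 and 5.67 CPM under NSC. The groups overlapped, with the lowest NSC liver just below the highest baseline liver. The log2 fold change against baseline was 0.29 under vehicle (SE 0.30, edgeR adjusted p = 0.519) and 0.81 under NSC (SE 0.30, edgeR adjusted p = 0.0535), so neither passed. The NSC difference passed in 7 of 17 alternatives, among them DESeq2, at 0.81 (adjusted p = 0.0321). It stood at 0.57 once NSC replicate 1 was left out (edgeR adjusted p = 0.160), and it was called without baseline replicate 1, at 1.06, or without NSC replicate 2, at 1.00.

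*Wnt2* (ENSMUSG00000010797, chromosome 6, 17988940 to 18030585, minus strand) encodes the other central vein Wnt protein. Its CPM was 3.82, 1.25 and 1.58 at baseline, 2.48, 2.59 and 1.77 under vehicle at 40 h and 4.86, 1.80 and 4.19 under NSC. Baseline replicate 1 was above every vehicle liver, and NSC replicate 2 fell within the vehicle range. The log2 fold change was 0.045 under vehicle (95% confidence interval -0.94 to 1.03) and 0.70 under NSC (interval -0.28 to 1.69), and neither passed. Baseline replicate 1 decided the NSC value: without it *Wnt2* was called at 1.35 (edgeR adjusted p = 0.0381).

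Since these ligands are known to be made in large part by liver endothelial cells, the summed CPM of 15 endothelial markers (*Pecam1*, *Cdh5*, *Stab2* and others, of which 0 were at 0 in a library) is given beside them. It was 395, 426 and 403 at baseline, 272, 393 and 270 under vehicle and 452, 268 and 298 under NSC. NSC replicate 1 was the highest liver of this sum too, and every other 40 h liver was below all baseline livers. Of the 15 markers, 0 were called higher in either group, 3 were called lower under vehicle and 2 under NSC. Over all tested genes 12.7% and 18.2% were called higher and 11.0% and 16.5% lower. As a percentage of that sum, *Wnt9b* was 0.408, 0.294 and 0.188 at baseline, 0.894, 0.771 and 0.615 under vehicle and 1.26, 0.811 and 0.658 under NSC, and all 40 h livers again lay above baseline. *Rspo3* was 1.12, 0.781 and 0.581 percent at baseline, 1.93, 0.877 and 1.35 percent under vehicle and 1.72, 1.61 and 1.91 percent under NSC. On this scale its NSC livers lay wholly above baseline and its vehicle livers did not, while on plain CPM its groups overlapped. A gene of unchanged CPM also rises on this scale where the sum is lower. How many of all tested genes separate on it was not computed. *Wnt2* overlapped between all groups on this scale, at 0.968, 0.294 and 0.393 percent at baseline, 0.912, 0.659 and 0.655 percent under vehicle and 1.07, 0.672 and 1.41 percent under NSC. In bulk tissue fewer cells of a type and less RNA per cell cannot be told apart, and the part of endothelial content in the ligand levels was not tested.

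The series lists 19 Wnt and 4 R-spondin genes, of which 8 passed the expression filter, 14 had under 10 counts in every library, and 4 of those 14 (*Wnt1*, *Wnt8a*, *Wnt8b* and *Rspo4*) had 0 counts throughout. The last one, *Wnt10a*, had 0 counts in the baseline livers, 8, 5 and 23 under vehicle and 2, 0 and 0 under NSC, too few for the filter. Among the 8, *Wnt5b* had the highest mean over the 9 livers at 2.90 FPKM, followed by *Rspo3* at 1.90, *Wnt2* at 1.22, *Wnt4* at 0.580, *Wnt9b* at 0.516, *Wnt5a* at 0.308, *Rspo1* at 0.280 and *Wnt9a* at 0.188 FPKM. Of the 6 Wnt genes tested, 1 was called higher under vehicle, *Wnt5a*, which encodes a ligand known mainly for β-catenin-independent signaling. *Wnt5a* was read at 0.537, 1.31 and 1.52 CPM at baseline, 4.03, 2.59 and 4.02 CPM under vehicle and 2.49, 2.85 and 2.15 CPM under NSC, with log2 fold changes of 1.66 (edgeR adjusted p = 0.00656) and 1.15 (edgeR adjusted p = 0.0277). The second call was lost without baseline replicate 1 (0.82) or NSC replicate 2 (1.05). Under NSC 2 were called higher, *Wnt9b* and *Wnt5a*, and 1 lower, *Wnt4*. *Wnt4* stood at 3.25, 2.6 and 2.67 CPM at baseline, 2.33, 5.36 and 2.84 CPM under vehicle and 1.47, 1.02 and 0.900 CPM under NSC, so that the NSC livers were below all others. Of all tested genes 23.1% were wholly below baseline under NSC and 12.2% wholly below vehicle, beside which *Wnt4* is 1 gene. The *Wnt4* log2 fold change under NSC was -1.32 against baseline (edgeR adjusted p = 0.0125) and -1.63 against vehicle, where it did not pass (edgeR adjusted p = 0.0849). The *Wnt4* difference from vehicle passed by DESeq2, at -1.62 (adjusted p = 0.00284), and without NSC replicate 1, at -1.87 (edgeR adjusted p = 0.0150). How large a share of all tested genes passed in these settings is not given here. *Rspo1*, the only other R-spondin gene tested, with 3, 3 and 13 counts in the baseline livers, 42, 32 and 34 under vehicle and 27, 8 and 1 under NSC, was called higher under vehicle at 2.34 (SE 0.77, edgeR adjusted p = 0.0462). That call was lost without any 1 of the 6 baseline and vehicle libraries other than baseline replicate 3, or without NSC replicate 2 (edgeR adjusted p = 0.0609 to 0.151). The medians over the 6 tested Wnt genes were 0.27 and 0.33. Beside these ligand calls, 12.7% of all tested genes were higher and 11.0% lower under vehicle, and 18.2% and 16.5% under NSC.

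**Figure D2:**
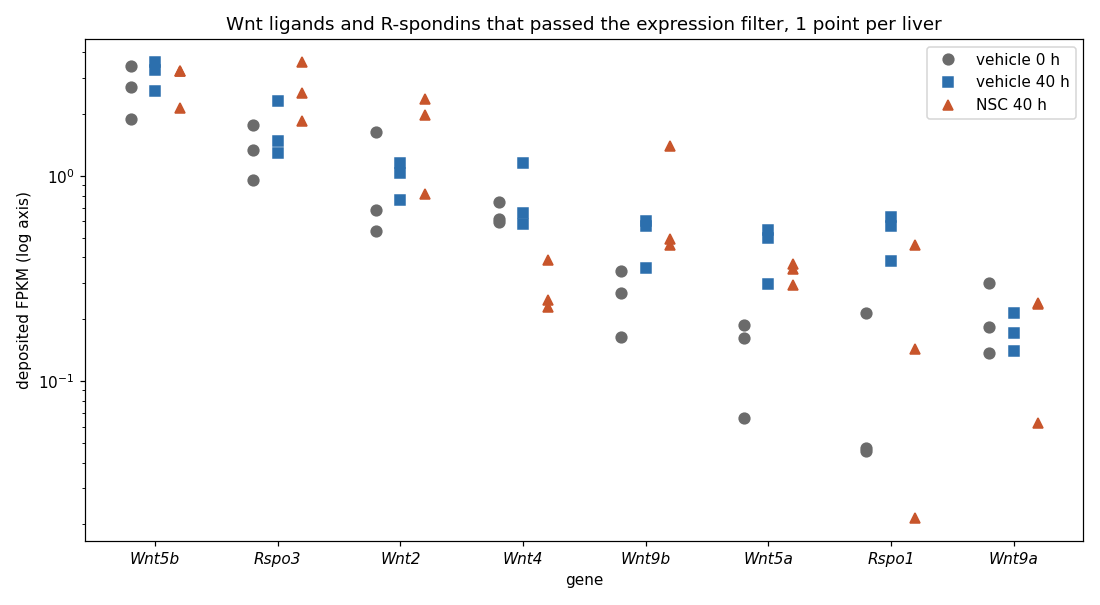
Deposited FPKM (log axis) of the 8 Wnt and R-spondin genes that passed the expression filter, 1 point per liver, with baseline, vehicle and NSC livers side by side. *Wnt9b* and *Wnt5a* lie above baseline in all 40 h livers, and *Wnt4* is lower in the 3 NSC livers than in the other 6.

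Among the receptor-complex genes, *Lgr5* rose and *Rnf43* and *Znrf3* passed in no comparison. *Lgr5* (ENSMUSG00000020140, chromosome 10, 115450311 to 115587780, minus strand) encodes an R-spondin receptor that is itself a Wnt target in pericentral hepatocytes. It was read at 5.91, 2.75 and 6.47 CPM at baseline, 13.4, 10.3 and 13.4 CPM under vehicle and 10.6, 9.07 and 7.91 CPM under NSC. Baseline replicate 2 was the lowest liver, and all 40 h livers were above baseline. The log2 fold change was 1.30 under vehicle (SE 0.28, edgeR adjusted p = 0.00608), from 5.04 ± 2.01 to 12.4 ± 1.78 CPM (SD, n = 3), and 0.87 under NSC (SE 0.28, edgeR adjusted p = 0.0304). The NSC call was lost without NSC replicate 1, at 0.75 (edgeR adjusted p = 0.0712), without NSC replicate 2, at 0.88 (edgeR adjusted p = 0.0664), and without baseline replicate 2, at 0.57 (edgeR adjusted p = 0.0644).

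*Rnf43* (ENSMUSG00000034177, chromosome 11, 87662722 to 87735539, plus strand) and *Znrf3* (ENSMUSG00000041961, chromosome 11, 5276324 to 5444847, minus strand) encode the ubiquitin ligases that remove Frizzled receptors, and both are induced by Wnt signaling in many tissues. *Rnf43* varied widely within groups, with 7.74, 20.3 and 13.6 CPM at baseline, 26.2, 23.9 and 11.3 CPM under vehicle and 13.4, 13.1 and 17.8 CPM under NSC. Vehicle replicate 3 lay among the baseline livers, and the log2 fold changes of 0.56 (SE 0.38) and 0.086 (SE 0.38) did not pass. An intronic transcript on the same strand, 1110028F11Rik, carried 9.81% as many counts as *Rnf43*. *Znrf3* had the narrowest intervals of the 10 genes, at 10.5, 9.25 and 9.34 CPM at baseline, 10.9, 8.14 and 9.04 CPM under vehicle and 8.13, 9.85 and 11.0 CPM under NSC. All 3 groups overlapped, and its intervals were -0.44 to 0.34 for vehicle and -0.40 to 0.39 for NSC on the log2 scale.

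Across 12 tested genes of the receptor list, which holds the Frizzled, LRP and LGR genes with both ligases, 1 was called higher and 1 lower under vehicle and 2 higher and 1 lower under NSC. Leaving out 1 library gave 1 to 2 higher and 1 to 3 lower under vehicle (3 without NSC replicate 1), and 2 to 3 higher and 1 to 2 lower under NSC. The list medians were -0.0093 and -0.056. Of all tested genes, 12.7% were called higher and 11.0% lower under vehicle, and 18.2% and 16.5% under NSC. *Fzd8*, a Frizzled receptor gene, was lower in both, from 7.07 CPM to 2.38 under vehicle (log2 fold change -1.57, edgeR adjusted p = 0.00326) and 2.72 under NSC (-1.39, edgeR adjusted p = 0.00426). *Fzd7* was higher under NSC, at 0.87 (edgeR adjusted p = 0.00888). Of the 2 genes for Wnt secretion, *Porcn*, whose product attaches the lipid that Wnt proteins need, was lower under vehicle (-0.74, edgeR adjusted p = 0.0492) and NSC (-1.29, edgeR adjusted p = 0.00272), and the Wnt carrier gene *Wls* passed in neither. The vehicle call of *Porcn* was lost without baseline replicate 1, 2 or 3, vehicle replicate 1 or 3, or NSC replicate 2 (edgeR adjusted p = 0.0548 to 0.154).

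The pathway targets *Axin2* and *Tbx3* were, like *Lgr5*, called higher under both treatments. *Axin2* (ENSMUSG00000000142, chromosome 11, 108920349 to 108950783, plus strand) encodes a scaffold of the β-catenin destruction complex and is the most widely used readout of the pathway. Its CPM was 1.48, 4.18 and 2.08 at baseline, 8.81, 8.32 and 6.61 under vehicle and 6.93, 4.52 and 4.15 under NSC. The vehicle livers were all above baseline, whereas NSC replicate 3 lay just below baseline replicate 2. The vehicle difference was the largest of the 10 genes, with a log2 fold change of 1.61 (SE 0.35, edgeR adjusted p = 0.00670), from 2.58 ± 1.42 to 7.91 ± 1.16 CPM (SD, n = 3), a 3.06-fold level. It passed in all 17 alternatives. Under NSC it was 1.01 (SE 0.35, edgeR adjusted p = 0.0426), close to the threshold, and this call held in 8 of 17. Leaving out any library other than baseline replicate 2 and NSC replicate 3 ended it, for example at 0.74 without NSC replicate 1 (edgeR adjusted p = 0.125), with log2 fold changes of 0.73 to 1.55 and edgeR adjusted p-values of 0.00418 to 0.139 over the 9 fits.

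*Tbx3* (ENSMUSG00000018604, chromosome 5, 119670669 to 119684724, plus strand) encodes a T-box transcription factor and a β-catenin target in the liver. It was read at 6.03, 11.5 and 8.68 CPM at baseline, 14.9, 14.5 and 19.6 CPM under vehicle and 18.0, 13.2 and 16.7 CPM under NSC. All 6 livers at 40 h were above the 3 baseline livers, and a transcript antisense to it, *Tbx3os1*, carried 0.915% as many counts. The log2 fold changes were 0.90 (SE 0.23, edgeR adjusted p = 0.0147) and 0.87 (SE 0.23, edgeR adjusted p = 0.0125). The NSC call held in each of the 9 fits that left out a library, and the vehicle call was lost without baseline replicate 1, at 0.69 (edgeR adjusted p = 0.0571), and without vehicle replicate 3, at 0.76 (edgeR adjusted p = 0.0661). Baseline replicate 2 was the highest baseline liver for *Tbx3*, *Axin2*, *Rnf43* and *Glul*, and the lowest for *Lgr5*.

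Summed levels of markers of other cell types are given beside these targets. The CPM sum of 6 cholangiocyte markers, of which up to 1 was at 0 in a library, was 4.46 to 6.57 at baseline, 15.1 to 18.9 under vehicle and 8.77 to 11.8 under NSC. For 10 stellate cell markers it was 339 to 373, 362 to 431 and 303 to 469, and for the 8 macrophage markers used here 151 to 209, 130 to 241 and 228 to 368, with 0 of either list at 0. The cholangiocyte sums lay wholly above baseline in both 40 h groups and the macrophage sums under NSC. The stellate sums and the macrophage sums under vehicle overlapped baseline. Of 10 stellate markers, 4 were called higher and 1 lower under vehicle, and 3 and 2 under NSC. Of 8 macrophage markers 2 were called higher under vehicle and 4 under NSC, and of 4 tested cholangiocyte markers 3 and 2, with 0 lower. All tested genes stood at 12.7% and 18.2% higher and 11.0% and 16.5% lower. The part of these cell types in the levels of *Axin2*, *Lgr5* and *Tbx3* was not tested.

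Promoter sequence was held for 5 of the 10 genes in the RefSeq promoter table used (GRCm38.p6), with 2 promoters for *Rnf43*. The 250 bases before the annotated start are shown 5′ to 3′ for *Axin2* and *Wnt9b*, both called higher under NSC, and for *Glul*, the abundant pericentral gene that passed in no comparison.
Axin2 (chr11:108920099-108920348, plus strand): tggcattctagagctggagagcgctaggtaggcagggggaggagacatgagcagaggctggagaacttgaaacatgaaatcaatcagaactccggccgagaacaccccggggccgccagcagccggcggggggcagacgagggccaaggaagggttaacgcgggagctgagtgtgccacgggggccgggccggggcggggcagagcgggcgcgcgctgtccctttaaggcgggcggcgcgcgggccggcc
Wnt9b (chr11:103749822-103750071, minus strand): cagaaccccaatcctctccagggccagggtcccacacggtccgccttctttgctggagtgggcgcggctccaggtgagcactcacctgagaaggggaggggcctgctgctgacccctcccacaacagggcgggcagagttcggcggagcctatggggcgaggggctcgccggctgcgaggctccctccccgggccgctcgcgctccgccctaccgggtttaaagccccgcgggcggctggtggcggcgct
Glul (chr1:153899679-153899928, plus strand): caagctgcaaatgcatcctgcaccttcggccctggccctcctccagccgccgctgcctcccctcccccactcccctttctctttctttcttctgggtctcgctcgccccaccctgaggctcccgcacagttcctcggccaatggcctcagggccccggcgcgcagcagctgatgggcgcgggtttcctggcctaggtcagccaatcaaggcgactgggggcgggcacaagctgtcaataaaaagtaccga
The TCF/LEF letters CTTTG followed by AA, AT, TA or TT, 4 words that share their first 5 bases, were searched on both strands from 250 bases before to 50 after the start. They occurred in 0 of the 6 promoters of these genes and in 16.9% of all 32851 promoters, so no letters are capitalized above. This says only that these letters are not in these windows.

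*Glul* and *Rhbg* handle ammonia in the hepatocytes that line the central vein. *Glul* (ENSMUSG00000026473, chromosome 1, 153899944 to 153909723, plus strand) encodes glutamine synthetase. It was read at 748, 968 and 623 CPM at baseline, 656, 796 and 795 CPM under vehicle and 979, 581 and 709 CPM under NSC. The groups overlapped throughout, and the lowest and highest of the 9 livers were both NSC livers. The log2 fold change was -0.058 under vehicle (95% confidence interval -0.55 to 0.43) and -0.044 under NSC (interval -0.53 to 0.45). With TMM replaced by library size alone the NSC value turned to 0.11. The microRNA gene *Mir8114*, inside *Glul* on its strand, carried 4.18% as many counts.

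*Rhbg* (ENSMUSG00000104445, chromosome 3, 88242874 to 88254709, minus strand) encodes an ammonium transporter. Its CPM was 7.17, 7.15 and 5.77 at baseline, 8.01, 10.6 and 7.86 under vehicle and 6.27, 4.89 and 9.67 under NSC. The vehicle livers were wholly above baseline, and the NSC livers held both the lowest value and the second highest. The log2 fold changes were 0.40 (SE 0.25, edgeR adjusted p = 0.271) and 0.049 (SE 0.25, edgeR adjusted p = 0.898), and neither passed. The annotation has a second entry at this locus and on this strand, RHBG (ENSMUSG00000103766), with 2132 counts over the 9 libraries against 2178 for *Rhbg*, so the counting may split reads between them and the *Rhbg* level is uncertain.

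In the wider pericentral list genes were called in both directions, and in the periportal list only lower. Of 27 pericentral genes, 6 of them among the 10 described here, 6 were called higher and 5 lower under vehicle (median 0.20), and 7 higher and 5 lower under NSC (median 0.059). Among the other 21 genes, 3 were higher and 5 lower under vehicle, and 4 higher and 5 lower under NSC, with medians of -0.23 and 0.045. Of 20 periportal genes, 0 were higher and 13 lower under vehicle (median -1.22), and 0 higher and 16 lower under NSC (median -1.54). Beside both lists, 12.7% of all tested genes were called higher and 11.0% lower under vehicle, and 18.2% and 16.5% under NSC. Leaving out 1 library gave 4 to 7 higher (4 without NSC replicate 1 or 2) and 3 to 5 lower (3 without NSC replicate 2) for the pericentral list under NSC, and 14 to 16 lower for the periportal list.

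*Slc13a3*, a dicarboxylate transporter gene, rose from 12.0 CPM at baseline to 36.8 under vehicle (1.62 on the log2 scale, edgeR adjusted p = 1.54e-04) and 26.6 under NSC (1.15, edgeR adjusted p = 7.58e-04). *Lect2*, which encodes a secreted hepatokine and is a known β-catenin target in hepatocytes, rose by 1.29 and 1.56 (edgeR adjusted p = 0.00103 and 2.44e-04). Other pericentral genes fell. *Cyp2e1*, the ethanol-oxidizing cytochrome P450 gene, stood at 4151, 5494 and 3828 CPM at baseline, 1788, 2665 and 2273 CPM under vehicle and 2094, 2341 and 2179 CPM under NSC, with log2 fold changes of -1.0 and -1.03 (edgeR adjusted p = 0.00509 and 0.00307). *Cyp27a1*, a sterol 27-hydroxylase gene of bile acid synthesis, had changes of -1.15 and -1.78 (edgeR adjusted p = 0.00402 and 2.57e-04).

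Among periportal genes, the urea cycle gene *Asl* stood at 1164, 1258 and 1090 CPM at baseline, 259, 492 and 412 CPM under vehicle and 190, 233 and 287 CPM under NSC, a log2 change of -1.59 and -2.31 (edgeR adjusted p = 8.69e-04 and 7.75e-05). *Gls2*, the liver glutaminase gene, changed by -1.32 and -1.70 (edgeR adjusted p = 7.29e-04 and 1.22e-04), and the glucose-6-phosphatase gene *G6pc* by -2.03 and -2.60 (edgeR adjusted p = 9.09e-04 and 1.73e-04). These 3 genes were picked for their small p, and each was lower in every 40 h liver than in every baseline liver. So were the pericentral genes *Cyp2e1* and *Cyp27a1*, and 22.0% of all tested genes under vehicle and 23.1% under NSC. Of the 20 periportal genes, 7 were not called under vehicle and 4 under NSC. *Glul*, whose product takes up ammonia that the periportal enzymes leave, overlapped baseline in both groups.

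**Figure D3:**
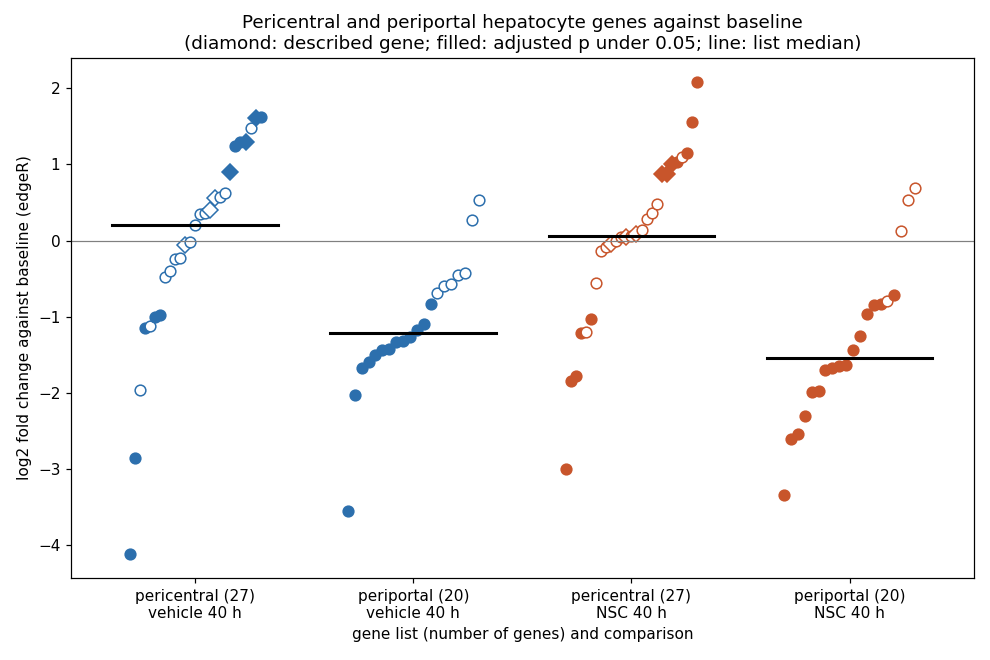
Log2 fold change against baseline (edgeR) of the 27 pericentral and 20 periportal genes under vehicle and NSC, sorted within each list, with diamonds for genes described here, filled symbols for adjusted p under 0.05 and a line at the list median. Pericentral genes spread to both sides of 0 with medians of 0.20 and 0.059, and periportal genes lie mostly below, with medians of -1.22 and -1.54.

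Of 12 tested genes of the Wnt target list, 5 of them among the 10 described here, 6 were higher and 2 lower under vehicle (median 0.75), and 6 higher and 2 lower under NSC (median 0.42). Leaving out 1 library gave 4 to 7 higher under vehicle (4 without baseline replicate 1). Under NSC it gave 3 to 5 higher (3 without baseline replicate 1 or NSC replicate 1). Among the 7 target genes not among the 10, 3 were higher and 2 lower in either group, with medians of 0.60 and -0.0041. Of all tested genes, 12.7% were called higher and 11.0% lower under vehicle, and 18.2% and 16.5% under NSC. *Ccnd1*, which encodes cyclin D1 and also answers to growth factors, rose from 10.7 to 105 CPM under vehicle (3.29, edgeR adjusted p = 0.00220) and 80.4 CPM under NSC (2.91, edgeR adjusted p = 0.00234). *Tcf7*, a TCF/LEF factor gene, rose by 1.51 under vehicle (edgeR adjusted p = 7.29e-04) and 0.75 under NSC (edgeR adjusted p = 0.0192). Not all listed targets rose: *Tnfrsf19* changed by -1.43 and -1.17 (edgeR adjusted p = 0.00440 and 0.00854). *Myc* was also called lower in both, from 12.8 CPM at baseline to 5.98 under vehicle and 5.01 under NSC. Its NSC change was -1.35 (edgeR adjusted p = 0.00726). The vehicle call of *Myc* was lost without baseline replicate 1 or 3 or vehicle replicate 2 or 3, where *Tnfrsf19* was the 1 target called lower.

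Inhibitors and transducers of the pathway completed the lists. Their counts stand beside 12.7% of all tested genes called higher and 11.0% lower under vehicle, and 18.2% and 16.5% under NSC. Of 5 tested extracellular inhibitor genes, 2 were higher and 0 lower under vehicle and 1 higher and 1 lower under NSC (medians 0.60 and -0.37). *Frzb*, a secreted Frizzled-related protein gene, was higher in both, by 1.64 and 1.52 (edgeR adjusted p = 0.0142 and 0.0145), and *Kremen1*, a receptor gene for Dickkopf proteins, was lower under NSC at -0.54 (edgeR adjusted p = 0.0172). *Frzb* under vehicle lost its call without baseline replicate 1 (1.42) or vehicle replicate 1 (1.18), *Frzb* under NSC without baseline replicate 1 (1.30), and *Kremen1* without baseline replicate 2 (-0.43) or NSC replicate 2 (-0.50). Of 18 transducer genes, among them *Axin2*, 2 were higher and 2 lower under vehicle (median -0.14), and 3 higher and 9 lower under NSC (median -0.46). Leaving out 1 library gave 2 to 3 higher and 1 to 4 lower under vehicle (4 without NSC replicate 1), and 1 to 3 higher (1 without baseline replicate 1 or NSC replicate 1) and 4 to 9 lower (4 without baseline replicate 3) under NSC. The TCF repressor gene *Tcf7l1* was lower in both, at -0.96 and -1.26 (edgeR adjusted p = 0.0115 and 0.00207). *Dvl1* and *Bcl9l*, whose products carry the signal from the receptor and join β-catenin in the nucleus, were lower under NSC at -0.79 and -1.05 (edgeR adjusted p = 0.00268 and 0.00289).

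The direct comparison at 40 h asked whether these genes differed between NSC and vehicle livers. The largest differences among the 10 were a *Wnt2* log2 fold change of 0.66 (95% confidence interval -0.32 to 1.64), one of -0.60 for *Axin2* (-1.35 to 0.14) and one of 0.52 for *Rspo3* (-0.13 to 1.17). *Rnf43*, *Lgr5* and *Rhbg* were at -0.47 (-1.33 to 0.38), -0.43 (-1.02 to 0.16) and -0.35 (-0.89 to 0.19), and *Wnt9b* was at 0.47 (-0.47 to 1.40). The intervals of *Znrf3* (-0.35 to 0.44), *Tbx3* (-0.53 to 0.46) and *Glul* (-0.48 to 0.51) were narrower. The 3 ligand genes lay above 0 and *Lgr5*, *Rnf43*, *Axin2*, *Tbx3* and *Rhbg* below (*Tbx3* at 0.10 by library size alone), and each of the 10 intervals included 0. Without NSC replicate 1 *Wnt9b* turned to -0.21, while *Wnt2* and *Rspo3* were at 0.38 and 0.27 and *Axin2* at -0.87. 

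Beyond the 10 genes, edgeR called 0 genes of the 9 pathway and zonation lists in the direct comparison. At an unadjusted p under 0.05 there were 1 of 6 Wnt ligand, 1 of 12 receptor, 2 of 5 inhibitor, 5 of 18 transducer, 2 of 12 target, 4 of 27 pericentral and 6 of 20 periportal genes, beside 19.5% of all tested genes. Without NSC replicate 1 edgeR called 1 ligand gene, 1 receptor, 2 inhibitors, 3 transducers, 2 targets, 1 pericentral and 2 periportal genes, without vehicle replicate 3 it called 1 inhibitor, 1 target and 1 periportal gene, and with all genes of at least 1 count tested it called 1 gene each of the ligand, inhibitor, target and periportal lists. DESeq2 called 1 ligand gene, 1 inhibitor, 3 transducers, 2 targets and 3 periportal genes. Lists can share genes, as the inhibitor and target lists share *Notum*, so a gene called in a setting can count in more than 1 list. The share of all tested genes called in each of these settings is not given here, so these counts cannot be set against it. That holds also for single genes that passed there. The medians of the target, pericentral and periportal lists were -0.32, -0.034 and -0.21. The smallest p in the inhibitor and target lists was that of *Notum*, which encodes a secreted enzyme that inactivates Wnt proteins and is itself a Wnt target. *Notum* stood at 21.9, 27.1 and 24.2 CPM at baseline, 38.2, 43.3 and 29.3 CPM under vehicle and 18.6, 16.8 and 21.2 CPM under NSC. The vehicle livers were the 3 highest and the NSC livers the 3 lowest. NSC livers lay wholly below vehicle livers in 12.2% of all tested genes. The difference between them was -0.97 on the log2 scale (SE 0.17, edgeR adjusted p = 0.0847), which did not pass. The same difference in *Notum* passed by DESeq2 (adjusted p = 4.36e-04), with all genes of at least 1 count tested (edgeR adjusted p = 0.00780), without NSC replicate 1 (edgeR adjusted p = 0.0126) and without vehicle replicate 3 (edgeR adjusted p = 0.0418). Against baseline *Notum* was at 0.60 under vehicle (edgeR adjusted p = 0.0231) and -0.37 under NSC (edgeR adjusted p = 0.109), and the first of these lost its call without baseline replicate 1 or 3 or vehicle replicate 1 or 2 (edgeR adjusted p = 0.0734 to 0.0973).

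**Figure D4:**
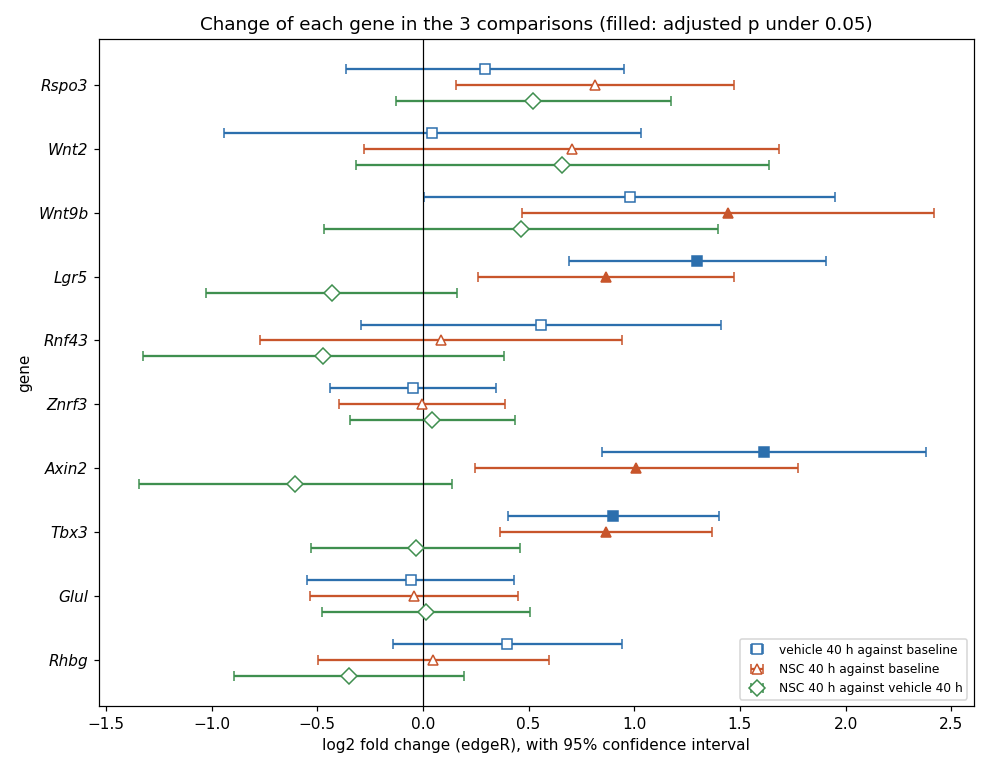
Log2 fold change (x axis) of each of the 10 genes in the 3 comparisons with its 95% confidence interval as a horizontal bar, filled where the adjusted p was under 0.05. *Axin2*, *Lgr5* and *Tbx3* are filled for both comparisons with baseline and *Wnt9b* for NSC, and every interval of NSC against vehicle crosses 0.

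The genes whose log2 CPM, centred on its mean, followed *Glul* most closely over the 9 libraries were *Mettl25*, *Fam76a* and *Slc1a2*, with root mean square differences of 0.105, 0.121 and 0.134 where the median tested gene was at 0.449. *Slc1a2* is on the pericentral list and had group means of 145, 123 and 132 CPM at baseline, under vehicle and under NSC. Nearest to *Axin2* were *Ptgfrn*, *Pprc1* and *Vim* at 0.162, 0.20 and 0.205, against a median of 0.887. *Ptgfrn*, picked for its closeness to *Axin2* in these same libraries, had group means of 3.74, 11.9 and 7.41 CPM at baseline, under vehicle and under NSC. Nearest to *Wnt2* were *Gpr65*, *Fli1* and *Clec4a1* at 0.195, 0.220 and 0.288, against a median of 0.739.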

How the data were processed

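RNA-Seq libraries (Illumina TruSeq Stranded mRNA) of 9 whole-liver samples were analysed. Paired-end reads were aligned by the authors with STAR 2.6.1 in the MAP-RSeq pipeline. The authors assigned reads to genes with featureCounts of Subread 1.5.1 and deposited raw counts per gene without pooling replicates. The deposited FPKM values are counts that the authors divided by gene length and library total. Whether a baseline and a 40 h library can come from the same mouse is not stated. The strand setting of the counting is not given in the sources used here. The submitters' processing notes name hg38, whereas the gene identifiers are mouse ones: 42462 of 43346 are in GENCODE M21 (GRCm38), with 33460 at the same position, including 9 of the 10 genes described (*Rspo3* differs). Positions are those of the deposited table and strands those of GENCODE.

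Counts were tested with edgeR 4.0.16 in R 4.3.3 (filterByExpr, TMM factors, robust quasi-likelihood fit of all 9 libraries with group as the only term), with Benjamini-Hochberg adjustment over 15024 genes. The SE is the absolute log2 fold change divided by the root of F. Log2 CPM used a prior count of 2. The study also required an absolute log2 fold change over 1.5, which is used here as an alternative. The 10 genes and all lists were chosen with earlier results of these data known. The 10 genes are always named. Per list and comparison up to 4 called genes with the smallest adjusted p could be named, or the 1 with the smallest p where none was called, and the 3 nearest genes were found for *Glul*, *Axin2* and *Wnt2*. Alternatives were RLE factors, library size only, other filters, DESeq2 1.42.0, the fold threshold, a fit of each pair of groups alone, a replicate block, and each library left out. Plots used Python 3.11.15 and matplotlib 3.10.9.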

Additional observations from a re-analysis of the deposited data

How the results depend on the processing

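With 3 livers in each group, the counts of *Wnt9b*, *Wnt2*, *Rspo3*, *Lgr5* and *Axin2* fell under 100 in some libraries. The 30 fold changes of the 10 genes were recomputed under 17 alternatives, and of 510 values 448 kept their direction and side of the threshold, 23 lost and 10 gained a call, and 29 changed sign, none of the last for a difference called in the report. The 49 further fold changes that the naming rule picked are not all printed above, and *Tcf7* and *Notum* under NSC are not among them. These 49 kept direction and side in 758 of 831 values, lost a call in 59, gained one in 14 and changed sign in 0. The number of genes called under vehicle was 1 with the fold threshold of 1.5 (*Axin2*) and 2 to 4 with a library left out. Under NSC it was 0 with the fold threshold, 2 with only the groups compared, and 1 to 5 with a library left out (1 without NSC replicate 1, 2 without baseline replicate 2 or 3). In the direct comparison it was 0 throughout. With library size only, *Glul* and *Znrf3* under NSC turned to 0.11 and 0.13 and *Tbx3* in the direct comparison to 0.10. That scaling moved the median of all genes to 0.15 under NSC and 0.14 in the direct comparison, and the share of NSC calls that were higher from 52.4% to 65.4%. *Znrf3* under NSC was also 0.0075 with at least 10 counts in every library and 0.0023 with only the groups compared.

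Leaving out 1 library at a time gave ranges that crossed 0 for *Glul* (-0.19 to 0.13 under vehicle, -0.27 to 0.14 under NSC and -0.22 to 0.17 between them), *Znrf3* (-0.17 to 0.047, -0.11 to 0.11 and -0.062 to 0.17), *Wnt2* under vehicle (-0.24 to 0.69), *Rnf43* and *Rhbg* under NSC (-0.21 to 0.47 and -0.26 to 0.25), and *Tbx3* and *Wnt9b* in the direct comparison (-0.13 to 0.11 and -0.21 to 0.72). The cause of these changes was not tested.

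The replicate numbers were not taken to pair the livers, since the labels do not say what they mark and not every pair was above the 0.1 required: deviations of same-numbered libraries from their group means correlated at -0.0479 to 0.134, and 4, 5 and 4 of 6 libraries in the 3 comparisons correlated best with their own number. With the replicate number as a block, 3, 5 and 0 of the 10 genes were called (*Rspo3* under NSC was added, adjusted p = 0.0231), *Rspo1* and *Porcn* under vehicle lost their calls (adjusted p = 0.0577 and 0.0705), and 3578, 5178 and 11 of all genes against 3564, 5207 and 6 without it.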
